A study of Mus musculus with 11 samples.

Results

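Retinal ganglion cells (RGCs) were examined in single-cell RNA libraries of mouse retinas at postnatal day 10. A cell was taken as an RGC when it held over 300 detected genes, at least 1 unique molecular identifier (UMI, a tag that counts an RNA molecule once) of 3 or more of 8 genes, and no UMI of Gad1. The 8 genes were Rbpms, Pou4f1, Pou4f2, Pou4f3, Slc17a6, Nefl, Nefm and Sncg. The rule found 101 cells among 20033 cells with over 300 genes, of 20067 cells in the table. These 9 genes chose the cells, so their levels are given as a description and were not tested. The study compared 3 control mice, which received the vehicle PBS, with 3 littermates made hyperglycemic by streptozotocin (STZ), a toxin of insulin-producing cells. The STZ mice model Phase I retinopathy of prematurity (Phase I ROP), in which retinal vessels grow late. It also compared 2 STZ-treated mice nursed by dams on a diet enriched with ω-3 long-chain polyunsaturated fatty acids (LCPUFA) with 3 STZ-treated littermates nursed by dams on a diet enriched with ω-6 LCPUFA. All were C57BL/6J mice, and whole retinas were dissociated with papain and captured by inDrop.

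RGCs are the output neurons of the retina. They receive signals from bipolar and amacrine cells, release glutamate, and send their axons through the optic nerve to the brain. They are rare among retinal cells, fall into many subtypes with their own transcription factors, and sit in the layer over which the first retinal vessels spread. At this age their axons have reached their targets while their dendrites and synapses still mature.

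Each mouse gave 7 to 15 members. The controls held 7, 7 and 11 members among 925, 787 and 1493 cells, and the Phase I ROP mice 7, 9 and 12 among 2039, 1397 and 2312. The ω-3 mice held 7 and 10 among 2390 and 2560 cells, and the ω-6 mice 8, 15 and 8 among 2618, 2169 and 1343. The members were deep cells, with a median of 14855 UMIs (467 to 51113) and 4909 genes, whereas the median over all cells of a mouse ran from 1003.5 to 2341 UMIs. Summed per mouse, the members carried 73836 to 268667 UMIs. No doublet caller was run, so the part of doublets was not tested.

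Cells on either side of the cut of 3 genes differed in median depth. The 17 cells with 3 of the 8 genes had a median of 10009 UMIs, and the 61 cells with 2 of them, just outside, had 3801. Of the 17 cells, 10 were the horizontal-like cells described below. The others had only 467 to 3224 UMIs, apart from 1 cell with 10009. At the upper end, 30 members held 6 of the genes, 32 held 7 and 5 held all 8. Another 19 cells had 3 or more of the genes together with Gad1 and were left out by the rule, although 9 of them carried a Pou4f UMI.

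The label was checked against marker genes, and it did not hold for all members. A UMI of at least 1 of Pou4f1, Pou4f2 and Pou4f3, which encode the Brn3 transcription factors of RGCs, was present in 79 of the 101 cells. A further 16 cells lacked all 3 and carried at least 4 of the 5 horizontal-cell genes Lhx1, Onecut1, Onecut2, Calb1 and Sept4. Horizontal cells are inhibitory interneurons of the outer retina that also make neurofilament, and these 16 cells had entered the rule with 3 (10 cells) or 4 (6 cells) of its genes. These 5 genes chose the 16 cells, so their presence there is no check. Of genes that did not choose them, all 16 held Slc32a1, the vesicular transporter of inhibitory transmitters, against 1.3% of the 79, and all 16 held the transcription factor Tfap2b, against 8.9%. The other 6 cells had neither pattern and a median of only 3938 UMIs.

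**Figure D1:**
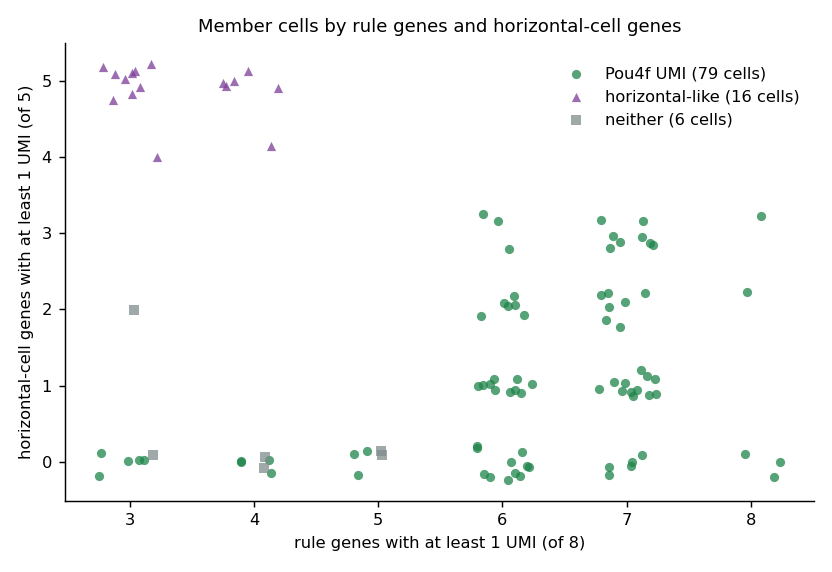
Each symbol is 1 of the 101 member cells, placed by how many of the 8 rule genes (horizontal axis) and of the 5 horizontal-cell genes (vertical axis) had at least 1 UMI in it. The 79 cells with a Pou4f UMI (green) spread up to 8 rule genes, the 16 horizontal-like cells (purple triangles) sit at 3 or 4 rule genes and 4 or 5 horizontal-cell genes, and 6 cells (grey squares) have neither pattern.

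The horizontal-like cells were not spread alike over the mice. They numbered 0, 1 and 2 in the controls, 3, 1 and 3 in the Phase I ROP mice, 0 and 1 in the ω-3 mice and 1, 2 and 2 in the ω-6 mice. The results on the conditions are those of all 101 members, as the rule defines them. Values over the 85 members that are not horizontal-like, an alternative chosen after the data were seen, stand beside the main ones.

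Genes outside the rule showed the same split. These shares describe the cells and were not tested, since every gene of a cell is tied to how it was chosen. Other sets from the same libraries serve for comparison, 1910 amacrine cells (median 4476.5 UMIs) and 11078 rods (median 1194 UMIs), each picked by its own markers. Members were kept out of the amacrine set, but other cells with RGC genes were not. Of the 1910 amacrine cells, 18 held a Pou4f UMI, and single cells held up to 8 of the rule genes. Thy1, a surface glycoprotein long used to mark RGCs, had a UMI in 96.2% of the 79 cells, 6.2% of the horizontal-like cells, 18.2% of amacrine cells and 1.5% of rods. Rbpms2, an RNA-binding protein related to Rbpms, was found in 89.9% of the 79 cells but in 0.9% of amacrine cells and 2.4% of rods. Nrn1, which encodes the neurite-growth protein neuritin, was found in 86.1% of the 79 cells, in 0.4% of amacrine cells and in 0 of the 16 horizontal-like cells. The nicotinic acetylcholine receptor subunits Chrna6 and Chrnb3 were found in 68.4% and 75.9% of the 79 cells. Nefh, the heavy neurofilament chain, went the other way, with 41.8% of the 79 cells and 87.5% of the horizontal-like cells.

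The members were deeper than the comparison cells, so the shares were taken again after each cell was thinned to 1000 UMIs, which left out 5 of the 101 members. Of genes outside the rule, Thy1 was then found in 88.8% of the members that are not horizontal-like, in 0 of the horizontal-like cells, in 4.15% of amacrine cells and in 0.743% of rods. Gap43, a protein of growing axons, was found in 67.5% of the members that are not horizontal-like, 6.25% of the horizontal-like cells, 17.0% of amacrine cells and 0.670% of rods. Stmn2, a regulator of microtubules, did not separate the members, with 90% and 81.2%, against 28.4% of amacrine cells.

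**Figure D2:**
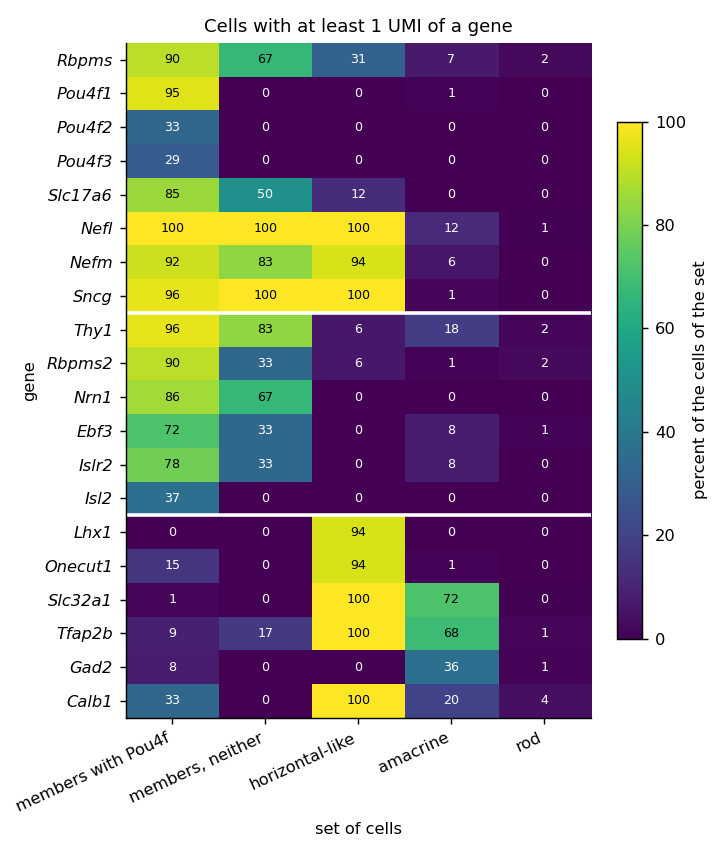
The heat map gives the percent of cells with at least 1 UMI for 20 genes (rows) in 5 sets of cells (columns), unthinned. The members with a Pou4f UMI and the horizontal-like members differ in genes that chose neither, for example 96.2% against 6.2% for Thy1 and 1.3% against 100% for Slc32a1. The Pou4f genes, Lhx1, Onecut1 and Calb1 helped to choose the sets.

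Among all genes outside the rule with at least 30 UMIs in the members, 15 with the highest ratio to amacrine cells of CPM, the UMIs of a gene scaled to a common library total, were listed, and this list too is a description. It held 4 genes of the Iroquois homeobox family, Irx4, Irx6, Irx5 and Irx2. Irx4 stood at 62.6 CPM in the pooled members and at 0.198 CPM in the amacrine cells, from 97 UMIs in 31 cells of 11 mice. Nrn1 stood at 592 against 7.44 CPM and Rbpms2 at 501 against 6.74 CPM. Isl2, a LIM-homeodomain factor of RGCs with contralateral projections, had 147 UMIs in 29 cells, and Adcyap1, the gene of the neuropeptide PACAP, had 60 UMIs in 28 cells against 2 UMIs in all amacrine cells. The calcium-dependent membrane proteins Anxa2 and S100a10, which form a complex, and the scaffold Ahnak2 were also on it. The last of the 15, Lhx1, got there through the horizontal-like cells alone, which carried all 105 of its UMIs.

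The Pou4f genes overlapped but were not found alike. Pou4f1 had a UMI in 75 members, Pou4f2 in 26 and Pou4f3 in 23, and 35 cells held Pou4f1 alone. Pou4f1 was joined by Pou4f2 in 18 cells, by Pou4f3 in 17 and by both in 5. After thinning, 56.2% of the members that are not horizontal-like kept Pou4f1, 7.5% Pou4f2 and 5% Pou4f3, so at this depth a cell without a Pou4f2 or Pou4f3 UMI cannot be called negative.

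Subtype genes were followed in the 85 members that are not horizontal-like. A cell held a median of 4 of the 30 listed genes, and 6 cells held none. Cdh6, a cell adhesion molecule of several RGC subtypes, was the most widely found, in 43 cells of 10 mice. The forkhead factors Foxp1 and Foxp2 were found in 36 and 26 cells, the chromatin organiser Satb1 in 33 cells, and the junctional adhesion molecule Jam2 in 32 cells. All 26 cells with Foxp2 also held Pou4f1. Rarer genes were Opn4, the photopigment melanopsin of intrinsically photosensitive RGCs, in 4 cells, and Eomes, the T-box factor of the same cells, in 7 cells. Of the 4 Opn4 cells 3 held Eomes. Spp1 and Nmb were found in 1 cell each, and Penk, Kcng4 and Fezf1 in 0 of 85.

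Combinations known from RGC subtypes were visible in small numbers. Cartpt, the gene of the neuropeptide CART and a marker of direction-selective RGCs, was found in 30 cells, and 10 of the 13 cells with the collagen gene Col25a1 were among them. Of the 8 cells with Neurod2, 7 held Satb1. All 8 cells with the protocadherin gene Pcdh20 held Foxp2, and 7 of them held Isl2. These pairs were counted in deep cells and no test was run on them.

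A few cells carried most of the UMIs of some subtype genes. Cartpt had 512 UMIs in its 30 cells, of which 245 lay in 1 cell. Cdh6 had 197 UMIs in 43 cells with up to 45 in a cell. The sums per mouse, over 7 to 15 members, can rest on 1 such cell.

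Short stretches of promoter are shown for the 3 genes whose windows held one of 2 motifs searched. Only 1 of 5 windows of rule genes (Slc17a6), 1 of 11 of identity genes (Isl2) and 1 of 7 of genes called in Phase I ROP or the interaction (Cartpt) had a match. The sequences are from RefSeq on build GRCm38.p6, 5′ to 3′ on the strand of the gene, and capitals mark the letters searched. For Cartpt (chr13:99900777-99900806, minus strand) and Isl2 (chr9:55541127-55541156, plus strand) the capitals are the palindromic cAMP response element TGACGTCA. For Slc17a6 (chr7:51624543-51624572, plus strand) they are the POU4F core letters TAATTAAT read on the other strand.
Cartpt: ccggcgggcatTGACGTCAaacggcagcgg
Isl2: cgagtgcgtgcTGACGTCAtgctgcgtgcg
Slc17a6: gattgtgaatgATTAATTAttcatgttgta
The capitals begin 112 bases before the annotated start for Cartpt, 11 for Isl2 and 83 for Slc17a6. In GENCODE the Cartpt and Isl2 stretches also lie in the UTR of another transcript of the same gene, and the Slc17a6 stretch lies inside a longer Slc17a6 transcript. On both strands, the cAMP element letters occurred in 508 of 32851 promoter windows of 250 bases (1.55%) and the POU4F letters in 259 (0.788%). A match is a description of letters and not a binding site.

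Members as a share of cells addressed whether hyperglycemia or diet went with fewer captured RGCs. The controls had 0.757%, 0.889% and 0.737% members, and the Phase I ROP mice 0.343%, 0.644% and 0.519%. Every control lay above every Phase I ROP mouse. The means were 0.794% ± 0.083 and 0.502% ± 0.151 (SD, n = 3 each), a difference of −0.292 percentage points (two-sided exact permutation test, p = 0.1). That is the smallest p that 3 against 3 mice allow, so the difference could not pass 0.05 in this design. Without the horizontal-like cells the means were 0.707% ± 0.091 and 0.386% ± 0.188, with the same p = 0.1 in the exact permutation test over 3 mice each.

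The share moved with the make-up and depth of the libraries. With photoreceptors left out of the denominator the difference turned sign. With every member kept over the other cells that are not photoreceptors, the controls were at 1.00%, 1.06% and 1.06% and the Phase I ROP mice at 0.782%, 1.49% and 1.44%, a difference of 0.197 percentage points (exact permutation p = 0.4), in an alternative chosen after the data were seen. Where members with photoreceptor genes were also dropped, which left 5, 7 and 8 members in the Phase I ROP mice and all members in the controls, it was −0.145 (exact permutation p = 0.7). After all cells were thinned to 1000 UMIs, which left out 741 of 3205 control cells and 2624 of 5748 Phase I ROP cells, it was −0.204 (exact permutation p = 0.3). Cells other than photoreceptors numbered 697 of 925, 663 of 787 and 1038 of 1493 in the controls. In the Phase I ROP mice they numbered 893 of 2039, 604 of 1397 and 827 of 2312. A smaller number of RGCs in the eye, a smaller yield of RGCs and a larger capture of photoreceptors from the dissociated tissue cannot be told apart.

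The ω-3 mice had 0.293% and 0.391% members, and the ω-6 mice 0.306%, 0.692% and 0.596%. The lowest ω-6 mouse lay between the ω-3 mice. The means were 0.342% ± 0.069 (SD, n = 2) and 0.531% ± 0.201 (SD, n = 3), a difference of 0.189 percentage points (two-sided exact permutation test, p = 0.3), where 0.1 is the smallest p this design allows. Without the horizontal-like cells the difference was 0.116 percentage points (exact permutation p = 0.5).

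**Figure D3:**
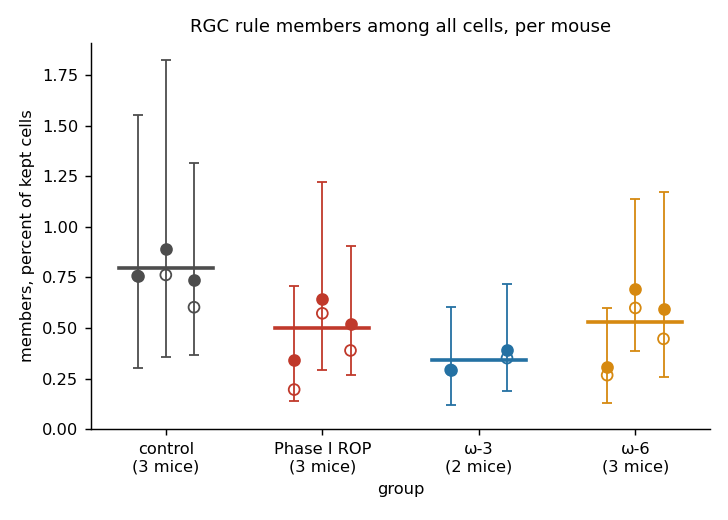
Members as percent of all cells with over 300 genes (vertical axis) are plotted for each of the 11 mice by group. Filled points are all members with their exact 95% binomial interval (counting error only), open points leave out the horizontal-like cells and bars are group means. The 3 controls lie between 0.737% and 0.889% and the 3 Phase I ROP mice between 0.343% and 0.644%, while the ω-3 and ω-6 mice overlap.

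Before the genes are compared, the control libraries need a remark. They stood apart from the other 8 libraries in several noncoding RNAs, in members and in amacrine cells alike. Rn7sk, the small nuclear RNA 7SK (chr9:78175303-78175633), was at 257, 118 and 234 CPM in control members, at 12.7, 0 and 0 in Phase I ROP, at 0 in both ω-3 mice and at 8.14, 0 and 0 in ω-6. In amacrine cells it was at 192, 153 and 150.2 CPM in the controls and at 1.36 to 2.83 in Phase I ROP. The control libraries are also the only ones of untreated mice, so treatment and library cannot be told apart for any difference from the controls. Of 18842 distinct barcodes, 1154 occurred in more than 1 library. They included those of 11 members, but no barcode was shared by 2 members.

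In Phase I ROP vs. control RGCs, 9 genes fell and none rose. Counts were summed over the members of each mouse, scaled by TMM (a method that sets the libraries to a common level) and tested with edgeR (quasi-likelihood test, p-values adjusted after Benjamini and Hochberg). The 9 calls were 0.36% of 2501 genes that passed the filter on low counts, and 377 genes had an unadjusted p under 0.05. The mice of the groups did not overlap for 522 genes, or 20.9% of those tested. The calls were Cartpt, Vsnl1, Lrrc17, Akap5, Gm9844, Gm37357, Rn7sk and the mitochondrial ribosomal RNAs mt-Rnr1 and mt-Rnr2. Akap5, the ninth by size, falls outside the naming rule and was added after its values were seen. All 9 were also called without the horizontal-like cells, where 18 genes fell and 2 rose among 1990 tested.

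Cartpt (chr13:99898489-99901091, minus strand) was at 2628, 528 and 117 CPM in the controls and at 12.7, 45.9 and 21.8 CPM in the Phase I ROP mice. The groups did not overlap, but the controls spread widely among themselves, and 245 of the 256 UMIs of control replicate 1 lay in 1 cell. Cells with a Cartpt UMI numbered 10 of 25 in the controls and 5 of 28 in Phase I ROP. Cartpt fell by 5.33 ± 0.99 on the log2 scale (SE, edgeR quasi-likelihood adjusted p = 0.0298), and without control replicate 1 the value was −3.59 (edgeR adjusted p = 0.128). In amacrine cells of the same mice Cartpt stood at 1888, 1057 and 1075 CPM in the controls and 153, 147 and 556 in Phase I ROP, and it fell there as well, by 2.29 (edgeR adjusted p = 0.000660).

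Vsnl1 (chr12:11325242-11436613, minus strand) encodes visinin-like 1, a neuronal calcium sensor. It was at 616, 962 and 461 CPM in the controls and at 102, 126 and 145 in Phase I ROP. No Phase I ROP mouse came near the lowest control. The fall was 2.48 ± 0.36 on the log2 scale (edgeR adjusted p = 0.00974), and the value without the horizontal-like cells was −2.55. Cells with a Vsnl1 UMI were 21 of 25 in the controls and 17 of 28 in Phase I ROP. Vsnl1 fell in amacrine cells too, by 0.87 (edgeR adjusted p = 0.00323).

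Akap5 (chr12:76324891-76334153, plus strand) encodes an anchoring protein that holds protein kinase A and calcineurin at synapses. Its level was 965, 859.6 and 1055 CPM in the controls and 242, 390.4 and 363 in Phase I ROP. It fell by 1.58 ± 0.29 (edgeR adjusted p = 0.0281). The leucine-rich repeat gene Lrrc17 (chr5:21543559-21575904, plus strand) was at 267, 244 and 293 CPM in the controls and at 38.2, 57.4 and 65.4 in Phase I ROP, a fall of 2.31 ± 0.40 (edgeR adjusted p = 0.0225). The Phase I ROP values of Lrrc17 rest on 3, 5 and 9 UMIs, and 7 of the 9 UMIs of replicate 3 lay in 1 cell. Cells with an Lrrc17 UMI numbered 16 of 25 in the controls and 8 of 28 in Phase I ROP. In members that are not horizontal-like Akap5 and Lrrc17 had values of −1.98 and −3.24. In amacrine cells both genes fell as well, by 1.41 and 2.11.

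The remaining calls were RNAs that also set the control libraries apart. The large mitochondrial ribosomal RNA mt-Rnr2 was at 21004, 17247 and 34098 CPM in the controls and at 4496, 4168 and 3072 in Phase I ROP, with a fall of 2.69 ± 0.50 (edgeR adjusted p = 0.0298). Its log2 difference in amacrine cells was −2.71. Gm37357, an unconfirmed locus (chr1:161811045-161814167, minus strand), was at 657, 733 and 854 against 102, 57.4 and 36.3 CPM and fell by 3.64 ± 0.37 (edgeR adjusted p = 0.000372). Rn7sk fell by 5.53, mt-Rnr1 by 2.35 and Gm9844 by 1.64. The part of library preparation in these values was not tested.

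**Figure D4:**
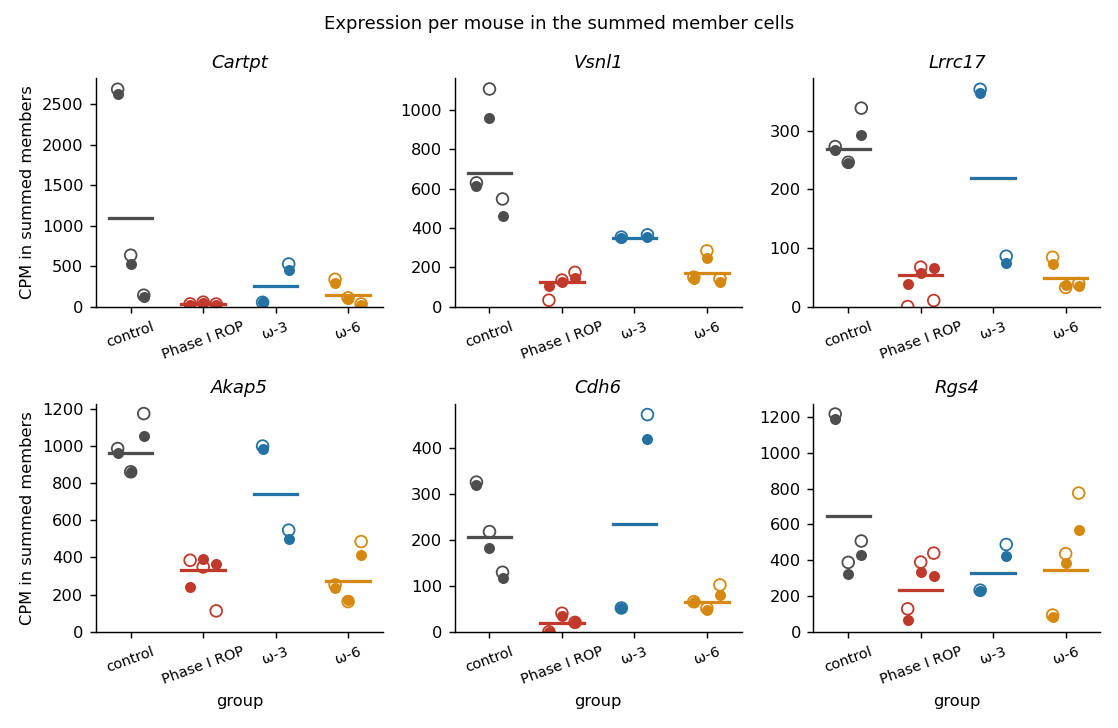
CPM in the summed members (vertical axis) are plotted for each of the 11 mice by group for Cartpt, Vsnl1, Lrrc17, Akap5, Cdh6 and Rgs4. Filled points are all members, open points leave out the horizontal-like cells and bars are group means. The controls of Vsnl1 lie between 461 and 962 CPM and its Phase I ROP mice between 102 and 145 CPM, and for Cartpt 1 control lies far above the other mice at 2628 CPM.

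Whether RGCs answered differently from other inner retinal neurons was asked with the interaction of cell class and group. It sets the Phase I ROP difference in members against that in amacrine cells of the same mice. The amacrine set of all 11 mice held 18 cells with a Pou4f UMI, and their part was not tested. Of 9057 genes tested 2 were called (0.0221%), Cdh6 and Rgs4, and 687 had an unadjusted p under 0.05. No gene of 3539 was called by edgeR, with 293 at an unadjusted p under 0.05, when the amacrine sums were thinned to the size of the member sums, and 19 were called without the horizontal-like cells, among them Cdh6, Rgs4, Cartpt, Calb2, Nrn1 and Rbpms2. Cdh6 (chr15:13028701-13173675, minus strand) was at 318, 181 and 117 CPM in control members and at 0, 34.4 and 21.8 in Phase I ROP members. In amacrine cells it was at 95.4, 154 and 109 CPM in the controls and at 116, 185 and 210.4 in Phase I ROP. The RGC values thus separated while the amacrine values overlapped, and the difference of differences was −3.96 ± 0.67 on the log2 scale (edgeR adjusted p = 0.0112). Within the members alone the value was −3.35 (edgeR adjusted p = 0.0549), and without the horizontal-like cells it was −3.15 (edgeR adjusted p = 0.0209). The Phase I ROP members held 6 Cdh6 UMIs in all and the control members 68. In control replicate 1, 29 of its 31 Cdh6 UMIs came from 1 cell. Cells with a Cdh6 UMI numbered 13 of 25 in the controls and 5 of 28 in Phase I ROP, against 11 of 17 in ω-3 and 20 of 31 in ω-6.

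Rgs4 (chr1:169741477-169747642, minus strand) encodes a protein that shortens G protein signals. In the members it was at 1191, 323 and 427 CPM in the controls and at 63.7, 333 and 312 in Phase I ROP, and the groups overlapped. In amacrine cells it was at 14.1, 11.2 and 24 CPM against 52.4, 76 and 63.4, with every Phase I ROP mouse above every control. The interaction was −3.39 ± 0.54 (edgeR adjusted p = 0.00848). It combined a rise in amacrine cells, 1.90 ± 0.33 (edgeR adjusted p = 0.000823), with a value of −1.44 ± 0.52 in the members that did not pass the test (edgeR adjusted p = 0.246). Cells with an Rgs4 UMI were 14 of 25 in the controls and 16 of 28 in Phase I ROP.

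Other cell types' markers moved with the groups in the summed members. The summed level of 8 rod genes was 38.1 to 120.3 CPM in the controls, 176 to 1162 in Phase I ROP, 813 to 830.5 in ω-3 and 212 to 495 in ω-6. The 6 horizontal-cell genes reached 160.4 to 1106 CPM in the controls and 717 to 4293 in Phase I ROP, and 160.4 to 290.03 and 82.7 to 129 without the horizontal-like cells. For 8 amacrine genes, with Gad1 at 0 by the rule, the ranges were 321 to 512 CPM in the controls and 795 to 1639 in Phase I ROP, and without the horizontal-like cells they overlapped, at 193 to 321 and 124 to 504 CPM. The part of these RNAs in the results was not tested.

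Genes of RGC identity outside the rule were not called in Phase I ROP. Of 21 tested, 6 were higher and 15 lower, with a median log2 difference of −0.20 beside −0.19 over all genes tested. Thy1 was at 1961, 1577 and 1591 CPM in the controls and at 586, 1722 and 1605 in Phase I ROP. The low mouse, replicate 1, also had 3 horizontal-like cells among its 7 members, and without them its Thy1 level was 1476 CPM. Calb2, the calcium-binding protein calretinin, had a log2 difference of −0.04 (edgeR adjusted p = 0.988), a sign that turned under other settings. Without the horizontal-like cells Ebf3, a transcription factor of RGCs, was 1 of the 2 genes that rose. It then stood at 136, 123 and 249 CPM in the controls and 449, 833 and 470.5 in Phase I ROP, a rise of 1.77 (edgeR adjusted p = 0.0201). With all members the value was 1.38 (edgeR adjusted p = 0.229). In Phase I ROP replicate 2, 45 of its 62 Ebf3 UMIs lay in 1 cell. Among members that are not horizontal-like, cells with an Ebf3 UMI numbered 13 of 22 in the controls and 15 of 21 in Phase I ROP.

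Genes of oxidative phosphorylation, mitochondrially encoded and nuclear, lay almost all on 1 side. All 13 mitochondrially encoded protein genes were lower in Phase I ROP members, with a median log2 difference of −0.78, and 72 of 73 nuclear genes of oxidative phosphorylation were lower, with a median of −0.54. None was called, against 0.36% of all genes, and 5 and 21 of them had an unadjusted p under 0.05. In members that are not horizontal-like the medians were −0.51 and −0.91, and 2 of 70 oxidative phosphorylation genes were called, Ndufs4 of complex I (−2.13, edgeR adjusted p = 0.0489) and Uqcrq of complex III (−1.56, edgeR adjusted p = 0.0420). Over all genes tested 37.8% were higher, with a median of −0.19. mt-Cytb, a subunit of complex III, was at 11374, 10851 and 13247 CPM in the controls and at 10674, 3674 and 3725 in Phase I ROP, with a log2 difference of −1.03 (edgeR adjusted p = 0.335). Replicate 1 of Phase I ROP stayed near the controls. Cox8a, a subunit of complex IV, was at 944, 923 and 1122 against 1032, 586 and 704 CPM.

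In amacrine cells of the same mice, summed over more cells, these genes lay on the same side. There all 77 oxidative phosphorylation genes were lower, 74 of them called, with a median of −1.09, and all 13 mitochondrially encoded genes were called lower with a median of −1.08. The share called over all genes was far higher there too, 3020 of 9869 (30.6%). Of 13 glycolysis genes 5 were higher in the members, with a median of −0.04 and none called. Gapdh had a log2 difference of −0.27. Over members that are not horizontal-like the median was −0.24 and Gapdh was at −0.85 (edgeR adjusted p = 0.135).

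Other lists gave no call beyond Cartpt. Of 28 axon growth and guidance genes 7 were higher and 21 lower (median −0.27). The 7 sodium and potassium channel genes had a median of −0.07, with Scn2a at 0.73, and the 18 synapse genes one of −0.17, with Snap25 at 0.57. The injury and stress list, in which transcription factors of axon injury and heat shock proteins were joined, had 4 of 7 tested genes higher with a median of 0.06. Hspa8 stood at −0.76 (edgeR adjusted p = 0.267). Only 2 genes each of the growth factor receptors and the immediate early genes passed the filter, with medians of 0.35 and 1.77. Of the 2 immediate early genes, 1 was higher at an unadjusted edgeR p under 0.05 and the other, Jund, stood at −0.10. In amacrine cells 17 of 17 immediate early genes rose, with a median of 3.29. For 4 subtype genes tested the median was −2.47, with Cartpt and Cdh6 among them. Without the horizontal-like cells the medians were −0.10 for the axon list, 0.24 for channels, 0.22 for synapse genes and 0.43 for the stress list, with no call in these, and Cdh6 was called beside Cartpt.

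In ω-6 vs. ω-3 RGCs no gene was called by edgeR's quasi-likelihood test, 0% of 4709 genes tested, while 322 had an unadjusted p under 0.05. DESeq2 also called 0, with 155 under 0.05. Both groups received STZ, and Rn7sk was at 0 to 8.14 CPM in the members of all 5 mice. Cartpt was at 50.9 and 457 CPM in the ω-3 mice and 293, 92.5 and 22.9 in the ω-6 mice, and the groups overlapped. Its log2 difference was −1.07 (edgeR adjusted p = 0.735). Without the horizontal-like cells 9 of 3614 genes were called. Akap5, Lrrc17, Cdh6, the protocadherin Pcdh10, the splicing factor Hnrnpll, Malat1 and AC161763.1 were then lower in ω-6, and mt-Rnr1 and mt-Rnr2 higher.

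Akap5 and Lrrc17 can be followed through the ω-3 mice. Akap5 was at 984 and 499 CPM in the ω-3 mice, and at 236, 169 and 413 in the ω-6 mice. Lrrc17 was at 365 and 74.6 CPM in the ω-3 mice and at 73.3, 36.2 and 34.4 in the ω-6 mice. For both genes ω-3 replicate 1 was the higher of the pair. The lower ω-3 mouse and the highest ω-6 mouse were close for Lrrc17, at 74.6 and 73.3 CPM. With all members neither gene was called (edgeR adjusted p = 0.0739 for Akap5 and 0.119 for Lrrc17). In amacrine cells ω-3 replicate 1 was also highest of the 5, with 744 CPM of Akap5 and 274 CPM of Lrrc17.

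The oxidative phosphorylation and mitochondrially encoded genes lay mostly on the other side in the diet comparison. Of 76 oxidative phosphorylation genes 73 were higher in ω-6, with a median of 0.67, and of 13 mitochondrially encoded genes 12 were higher, with a median of 0.39. None was called, and 24 and 6 of them had an unadjusted p under 0.05. Over all genes 55.0% were higher, with a median of 0.06. The values of named genes were 0.55 for mt-Co2 (edgeR adjusted p = 0.515), 0.39 for Cox8a and 0.33 for Atp5a1, a subunit of ATP synthase. The medians over members that are not horizontal-like were 0.46 and 0.37, with none called. In amacrine cells 77 of 77 oxidative phosphorylation genes were higher in ω-6, with a median of 0.32 and none called.

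Among the remaining lists, 12 of 15 glycolysis genes were higher in ω-6 members (median 0.30), 11 of 14 channel genes lower (−0.33) and 19 of 26 synapse genes lower (−0.13). The 27 identity genes had a median of 0.07, the 33 axon genes −0.07 and the 12 stress genes −0.06. Of 8 subtype genes 7 were lower, with a median of −1.04. No gene of these lists was called. Leaving out the horizontal-like cells gave medians of 0.16 for glycolysis, −0.21 for channels and −0.97 for subtype genes, of which Cdh6 was then called.

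**Figure D5:**
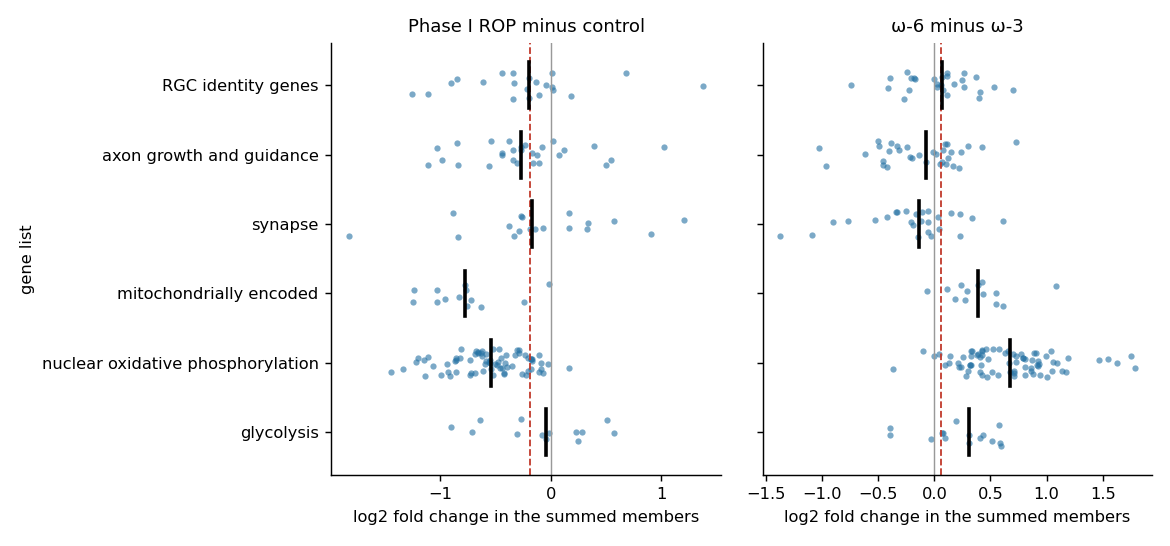
Each point is the log2 difference of 1 tested gene in the summed members, in 6 lists (vertical axis), for Phase I ROP minus control and for ω-6 minus ω-3. Black marks are list medians and dashed red lines are the median of all genes tested, −0.19 and 0.06. Most oxidative phosphorylation genes lie left of the line in the former (median −0.54) and right of it in the latter (median 0.67).

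The growth factor genes that the study followed were sparse in RGCs. Igf1r, the receptor of insulin-like growth factor 1 (chr7:67952827-68233668, plus strand), was at 20.5, 31.5 and 67 CPM in the controls and 50.9, 138 and 152 in Phase I ROP. These rest on 14 and 37 UMIs in all, in 8 of 25 and 15 of 28 cells, and Igf1r did not pass the filter for that comparison. In the ω-3 mice it was at 76.3 and 83.9 CPM and in the ω-6 mice at 147, 56.3 and 57.3. The ω-6 mice lay on both sides of the ω-3 mice, and the log2 difference was 0.05 ± 0.54 (edgeR adjusted p = 0.999). In the highest ω-6 mouse 13 of 18 UMIs lay in 1 cell, and without that mouse the difference was −0.42. Cells with an Igf1r UMI numbered 15 of 17 in ω-3 and 18 of 31 in ω-6.

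Adipor1, a receptor of adiponectin, was at 50.9 and 79.3 CPM in the ω-3 mice and 57, 165 and 57.3 in the ω-6 mice, with a log2 difference of 0.56 ± 0.55 (edgeR adjusted p = 0.894). Igf1 itself was at 71.9, 110.4 and 25.1 CPM in the controls, at 0, 0 and 14.5 in Phase I ROP, at 0 and 159 in ω-3 and at 24.4, 16.1 and 45.8 in ω-6. All 34 UMIs behind the 159 CPM came from 1 cell. Vegfa, the main growth factor of vessels, stayed between 4.02 and 63.7 CPM in all 11 mice. Igf1 and Vegfa did not pass the filter in either comparison.

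Subtype genes were also counted per group in the 85 cells, with no test. Satb1 was found in 9 of 22 control cells, 5 of 21 Phase I ROP cells, 9 of 16 ω-3 cells and 10 of 26 ω-6 cells. Foxp2 was found in 5, 6, 9 and 6 of these cells and Irx4 in 6, 8, 7 and 10. Eomes occurred in 3 control and 4 ω-6 cells. With 4 to 13 such cells a mouse, these counts give no order between groups.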

How the data were processed

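UMI counts per gene and cell were deposited by the authors as one table of 11 libraries, 1 per mouse. Per the study's methods, reads were assigned to barcodes and counted as UMIs against mouse transcripts of GRCm38, with no normalization and no strand or cell type in the table. The members and gene lists were chosen with earlier results of these data known. Scripts in Python 3.11.15 summed counts per mouse over the members, and R 4.3.3 with edgeR 4.0.16 tested the sums (TMM, filterByExpr, quasi-likelihood test, Benjamini-Hochberg, threshold 0.05), leaving out the 9 rule genes. DESeq2 1.42.0 was an alternative. A mouse, not a cell, was the replicate. P-values measure the spread between mice. The scripts were tested on simulated data. Amacrine comparison cells held 3 or more of 8 amacrine genes with Gad1 or Slc6a9, and rods 4 or more of 8 rod genes. Genes named were up to 8 called genes in each direction without overlap between groups, up to 4 of each list, Igf1r, Igf1, Vegfa, Adipor1 and 15 identity genes. All 53 named genes matched GENCODE. Binomial intervals are exact and cover counting error only. No doublets were removed here. Some items are not reported here.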

Additional observations from a re-analysis of the deposited data

Results flagged for a closer look

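The Phase I ROP difference was set apart between RGC members and amacrine cells by a test of the interaction for 2 genes. Cdh6 had an interaction of −3.96 on the log2 scale (edgeR quasi-likelihood adjusted p = 0.0112). Its value of −3.35 in the members alone did not pass the test (edgeR adjusted p = 0.0549), and the Phase I ROP members held only 6 Cdh6 UMIs. In amacrine cells the value was 0.45 (edgeR adjusted p = 0.147). Rgs4 had an interaction of −3.39, with a rise in amacrine cells (edgeR quasi-likelihood adjusted p = 0.00848). When the amacrine sums were thinned to the size of the member sums, 0 of 3539 genes were called by edgeR and 293 had an unadjusted p under 0.05.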

How the results depend on the processing

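The count of 9 calls in Phase I ROP became 4 with median-of-ratios scaling, 72 with no filter on low counts, 5 with members of at least 4 markers, 0 of 261 genes tested in members without amacrine UMIs (11 at an unadjusted p under 0.05) and 20 without the horizontal-like members. Leaving out 1 mouse gave 1 to 34 calls: 34 without Phase I ROP replicate 1, 1 without Phase I ROP replicate 2 or 3, 2 without control replicate 1 or 2 and 5 without control replicate 3. DESeq2 called 11. The count of 0 in ω-6 minus ω-3 became 15 with no filter, 5 with at least 4 markers and 9 without the horizontal-like members, and 0 to 21 with 1 mouse left out, the highest without ω-3 replicate 2. The 2 interaction calls became 101 against all other cells, 20 with no filter, 0 with thinned amacrine sums and 19 without the horizontal-like members, and 1 to 25 with 1 mouse left out, the highest without control replicate 3 and the lowest without Phase I ROP replicate 3. The causes were not tested. The labels number the replicates in each group. The deviations of same-numbered mice from their group means had r = −0.21, −0.16 and 0.05 for Phase I ROP and control, and 0.06 and 0.03 for the diets. With groups of 2 or 3 mice these values cannot tell whether the numbers pair the mice. With the replicate block the Phase I ROP count was 1 and the diet count 7.

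The log2 differences of some single genes turned sign. In Phase I ROP, Calb2 was at 0.062 with DESeq2, 0.066 with median-of-ratios scaling, 0.014 with all groups in 1 fit, 0.22 with at least 4 markers, 0.44 in members without amacrine UMIs, 0.031 over 500 genes, 0.021 thinned and 0.20 without the horizontal-like members. Without 1 mouse it ranged from −0.54 to 0.51, the latter without Phase I ROP replicate 1. Jund, at −0.10 with all mice, was at 0.00026 with median-of-ratios scaling and ranged from −0.52 to 0.12 without 1 mouse, the latter without control replicate 3. In ω-6 minus ω-3, Igf1r was at −0.060 with at least 4 markers, −0.014 without the horizontal-like members and −0.42 to 0.32 without 1 mouse, the former without ω-6 replicate 1. Atp5a1 was at −0.19 in members without amacrine UMIs, and Adipor1 at −0.016 thinned. Without 1 mouse Calb2 ranged from −0.14 to 0.62 and Cartpt from −2.04 to 1.33, with both signs turned by leaving out ω-3 replicate 2. The Phase I ROP share difference turned to 0.197 percentage points when every member was set over the cells that are not photoreceptors. With 1 mouse left out it was −0.363 to −0.213, and 0.109 to 0.302 in the diets. The medians of the oxidative phosphorylation genes kept their sign under every alternative run, from −0.91 to −0.38 and from 0.46 to 0.79. Depth limits genes such as Igf1r, with 14 to 42 UMIs a group.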

Other observations

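RNA of RGC genes was highest in the amacrine sum of control replicate 3. There Thy1 was at 254 CPM, against 52 to 94.9 in the other 10 mice, Nrn1 at 84.7 against 0 to 13.9, and Rbpms2 at 71.9 against 0 to 7.84. A UMI of Nrn1 was present in only 1.63% of its 123 amacrine cells, and the share with Thy1, 15.4%, lay within that of the other mice, 12.8% to 24%. Nrn1 and Rbpms2 were called in the interaction when the horizontal-like members were left out, and that library's part in those calls was not tested.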
